A study of Mus musculus with 8 samples.

Results

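The Fraser complex and anchoring fibril genes described here are Fras1, Frem1, Frem2, Grip1 and Col7a1, 5 of the 23432 genes in the count tables. They were taken by name for their place in the junction between epidermis and dermis, with earlier results of these data known. RNA-seq was made from mouse back skin in 4 groups of 2 libraries. In E16.5 embryos, epithelial cells carrying a K14-H2BGFP reporter were sorted from MOFfl/fl/K14Cre embryos (MOF cKO) and from controls, and in P0.5 newborns (postnatal day 0.5), total epidermis was peeled with dispase from the skin of Kansl1fl/fl/K14Cre pups (Kansl1 cKO) and from controls. MOF (gene Kat8) is the acetyltransferase of lysine 16 of histone H4, and Kansl1 is a scaffold of the NSL complex in which MOF works.

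Several limits of the model bear on what follows. K14Cre acts in Krt14-expressing epithelium and its descendants, so other skin cells kept both genes. Control litter mates were wild type or heterozygous, of mixed C57Bl/6J and CD-1 background and either sex. Stage, deleted gene, isolation (sort or sheet) and, by the study's methods, the sequencer model changed together between the experiments and cannot be told apart. The study describes 2 pairs of samples for each experiment. The labels do not say which libraries pair, or whether the 2 libraries of a group came from separate animals. The main fits therefore used no pairing, and p-values measure the spread between these libraries, which may be technical. In such bulk samples, fewer cells of a type and less RNA per cell cannot be told apart either.

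FRAS1 and FREM2 are very large proteins anchored in the membrane of epidermal cells, and FREM1 is a secreted relative that in skin is made largely by dermal cells. They assemble below the basement membrane and stabilise one another there, and loss of any of them lets the epidermis lift off in fetal blisters. GRIP1, a cytoplasmic scaffold of PDZ domains, binds the tails of FRAS1 and FREM2 and brings them to the basal cell surface. Collagen VII, the product of Col7a1, forms the anchoring fibrils that hook the basement membrane to the dermis, and its loss causes dystrophic epidermolysis bullosa. The Fraser complex is best known as the embryonic adhesion system, and collagen VII as the later one.

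In the GENCODE M21 annotation of mm10, the build of the files, Fras1 lies on the plus strand at chr5:96373955-96784728, Frem1 on the minus strand at chr4:82897920-83052339 and Frem2 on the minus strand at chr3:53513938-53657355. Grip1 spans chr10:119453830-120087261 and Col7a1 chr9:108953586-108984875, both on the plus strand. The longest Col7a1 transcript has 119 exons and that of Fras1 has 74. Exons of Fras1 share 159 bases with those of the antisense gene Gm42604, and Col7a1 shares 36 bases with the microRNA gene Mir711 on its own strand. The strand setting of the counting is not given in the sources used here, so reads in those bases cannot be assigned with certainty.

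The start-site windows of the members are shown first, as a description. A tie between these windows and the changes reported below was not tested. RefSeq (GRCm38.p6) gives a window from 250 bases before to 50 bases after the start for 4 of the 5 members, 7 windows in all; Fras1 has no entry. The windows printed are Frem2 at chr3:53657306-53657605 (minus strand), Frem1 at chr4:83052117-83052416 (minus strand), Col7a1 at chr9:108953336-108953635 (plus strand) and Grip1 at chr10:119453784-119454083 (plus strand). These are the windows nearest the annotated gene start where a gene has several. Each reads 5′ to 3′ along its gene, and capitals mark GC boxes (GGGCGG) and CCAAT boxes (CCAAT), searched on both strands, so that a reverse CCAAT box appears as ATTGG.
Frem2: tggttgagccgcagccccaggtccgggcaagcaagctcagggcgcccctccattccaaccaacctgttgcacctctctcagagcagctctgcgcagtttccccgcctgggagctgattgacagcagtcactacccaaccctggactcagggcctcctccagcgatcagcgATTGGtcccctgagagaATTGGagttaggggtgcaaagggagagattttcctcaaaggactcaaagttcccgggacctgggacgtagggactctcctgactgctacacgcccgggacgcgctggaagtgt
Frem1: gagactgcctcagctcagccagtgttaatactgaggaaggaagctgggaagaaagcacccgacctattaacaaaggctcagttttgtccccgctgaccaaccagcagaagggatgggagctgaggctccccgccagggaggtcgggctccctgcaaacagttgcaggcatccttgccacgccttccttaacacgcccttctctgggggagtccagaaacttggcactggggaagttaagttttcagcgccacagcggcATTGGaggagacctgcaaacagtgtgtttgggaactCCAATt
Col7a1: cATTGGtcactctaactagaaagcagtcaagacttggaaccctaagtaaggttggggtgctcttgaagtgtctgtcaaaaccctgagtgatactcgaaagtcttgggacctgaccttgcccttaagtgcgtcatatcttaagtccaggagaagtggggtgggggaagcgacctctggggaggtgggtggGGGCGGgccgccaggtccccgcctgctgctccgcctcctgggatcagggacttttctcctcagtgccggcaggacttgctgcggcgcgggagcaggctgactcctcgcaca
Grip1: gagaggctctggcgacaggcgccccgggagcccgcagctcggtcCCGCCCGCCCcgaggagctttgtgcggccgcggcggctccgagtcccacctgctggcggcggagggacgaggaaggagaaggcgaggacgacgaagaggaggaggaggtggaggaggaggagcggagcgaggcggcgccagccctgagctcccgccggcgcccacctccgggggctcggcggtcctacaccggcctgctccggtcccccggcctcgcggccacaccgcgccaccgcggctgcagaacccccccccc

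The Frem2 window held 2 CCAAT boxes, both on the reverse strand, and the Frem1 window held 2 just after the start. Col7a1 had 1 GC box, 61 bases before the start, and 1 CCAAT box near the upstream edge. The Grip1 window had 2 overlapping GC boxes and no CCAAT box. Of the 32851 windows in the RefSeq table, 35.7% held a GC box and 37.4% a CCAAT box. The Grip1 window shown also had another base composition than the rest, with 77.3% G or C and an observed to expected CpG ratio of 0.847, against ratios of 0.477 in Frem2, 0.471 in Col7a1 and 0.345 in Frem1 and a median of 0.384 over the table. The other Grip1 windows had ratios of 0.0631 and 0.338 and 46% and 53% G or C, and the other Frem1 window a ratio of 0.311. The 4 windows shown held no AP-1 site (TGANTCA; 7.81% of the table) and no TATA box (TATAAA; 13.6%), while Frem1 and Grip1 had 1 E box each (CANNTG; 72.3%). Among the 3 windows not shown, a Grip1 window had 1 CCAAT box, another Grip1 window had 1 TATA box and 1 E box, and the Frem1 window had 3 E boxes and no CCAAT box. These matches describe letters in the windows and not binding.

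Libraries held 9108709 to 27561688 counts on genes. Values are given as CPM, counts brought to a common library total and scaled by the trimmed mean of M-values (TMM), and calls needed both an adjusted p of at most 0.01 and a fold over 1.5. The counts of the targeted genes did not check the labels. Kat8 stood at 14.4 and 14.7 CPM in the E16.5 controls and at 12.4 and 13.9 CPM in MOF cKO (log2 fold change −0.14, SE 0.18, adjusted p = 0.554, edgeR's quasi-likelihood test with Benjamini-Hochberg adjustment), and Kansl1 at 40.7 and 48.2 CPM in the P0.5 controls and at 31.4 and 30.6 CPM in Kansl1 cKO (−0.52, SE 0.17, adjusted p = 0.242). The study itself reported loss of the deleted Kansl1 exon in its RNA-seq and by PCR. It also reported strong depletion of the histone mark of MOF in E16.5 MOF cKO epidermis by staining. These counts over whole genes add no check to that, so MOF cKO and Kansl1 cKO stand below for the libraries so labelled. Basal keratinocyte markers were abundant everywhere, with the 8 genes of that list summing to between 31672 and 38961 CPM at E16.5 and between 17723 and 19655 CPM at P0.5.

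In E16.5 epithelium all 3 genes of the Fraser complex and Col7a1 were lower in MOF cKO than in control, while Grip1 was higher. Frem1 fell furthest, 4.72-fold, and Fras1 and Frem2 fell by like amounts, 2.29-fold and 2.23-fold. Col7a1 fell 1.81-fold and Grip1 rose 1.69-fold. Thus 4 members were called lower and 1 higher, where 9.59% of the 13956 genes tested were called lower and 10.0% higher. All 5 also had control and MOF cKO libraries that did not overlap, 4 lower and 1 higher, a pattern seen downward in 37.7% and upward in 34.9% of genes. The study had already reported Col7a1 and Frem2 as lower in this RNA-seq, and the members were chosen with earlier results known. Their counts beside these shares are therefore not an independent result.

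Frem2, the membrane-bound partner of Fras1, was counted 18881 and 15947 times in the controls and 5791 and 5744 times in MOF cKO, or 616 and 576 CPM against 291 and 243 CPM. Both MOF cKO libraries lay below both controls (log2 fold change −1.16, SE 0.12, adjusted p = 0.000763, edgeR's quasi-likelihood test with Benjamini-Hochberg adjustment, as for all adjusted p below). Fras1 had 11315 and 7841 counts in the controls and 3509 and 2559 in MOF cKO, or 369 and 283 CPM against 176 and 108 CPM. Its libraries were more scattered within each group, but those of MOF cKO were again the lower ones (−1.20, SE 0.23, adjusted p = 0.00678). This call was lost, with the fold kept, in one fit over all 8 libraries (adjusted p = 0.0123) and with DESeq2 on every gene with a count (adjusted p = 0.0111).

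Frem1, the secreted member, had 1173 and 1371 counts in the controls and 204 and 198 in MOF cKO, or 38.3 and 49.5 CPM against 10.2 and 8.38 CPM. The lower control was more than 3-fold above the higher MOF cKO library (−2.24, SE 0.19, adjusted p = 0.000488). Because dermal cells make Frem1, markers of dermal fibroblasts were read beside it. The 10 genes of that list summed to 2077 and 2621 CPM in the controls and to 2515 and 3029 CPM in MOF cKO, with none at 0. Postn and Dcn, which were lower in MOF cKO, were the largest parts of the control sums. The median log2 fold change of the list was 0.88, with 7 genes above 0 and 3 below. By edgeR 0 of them were called, and DESeq2 called Lum and Pdgfra higher. At an unadjusted p under 0.05 there were 6 higher and 2 lower, where 23.7% of all genes were higher and 25.1% lower. Col1a1, the main collagen of dermis, stood at 120 and 320 CPM in the controls and at 358 and 533 CPM in MOF cKO (1.02, SE 0.41, adjusted p = 0.0866). Frem1 thus had 0.319 and 0.154 counts for each count of Col1a1 in the controls and 0.0286 and 0.0157 in MOF cKO. Other fibroblast markers were lower without overlap, Dcn at 495 and 509 CPM against 411 and 404 CPM (−0.30, adjusted p = 0.0431) and Postn at 861 and 727 CPM against 674 and 517 CPM (−0.42, adjusted p = 0.0656). Per count of Dcn, Frem1 had 0.0773 and 0.0972 counts in the controls and 0.0249 and 0.0208 in MOF cKO, and per count of each of the 10 fibroblast markers it was lower without overlap. The part of dermal cells in the Frem1 values was not tested.

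Grip1, the intracellular scaffold, had 783 and 662 counts in the controls and 878 and 933 in MOF cKO, or 25.5 and 23.9 CPM against 44.1 and 39.5 CPM. Here MOF cKO was the higher group in both libraries, also in raw counts (0.76, SE 0.14, adjusted p = 0.00504). The call was less secure than the others. It was lost when libraries were scaled by size alone, which moved the median of all genes from −0.02 to −0.32 on the log2 scale (Grip1 0.45, adjusted p = 0.0290), in one fit over all libraries (0.76, adjusted p = 0.0416), without E16.5 control replicate 2 (0.71, adjusted p = 0.0133) and without MOF cKO replicate 1 (0.67, adjusted p = 0.0169).

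Col7a1, the anchoring fibril collagen and the most abundant member, had 40921 and 45382 counts in the controls and 15459 and 20380 in MOF cKO, or 1335 and 1638 CPM against 776 and 863 CPM. The groups were well apart (−0.86, SE 0.13, adjusted p = 0.00247). Set against Krt14, the keratin of basal cells, Col7a1 had 0.133 and 0.169 counts per Krt14 count in the controls and 0.0744 and 0.0704 in MOF cKO. Over the whole basal list, Col7a1 per count of the marker was lower without overlap in MOF cKO for 6 of 8 markers, overlapped for Trp63 and was higher for Krt15, itself lower in MOF cKO (0.321 and 0.492 in the controls, 0.515 and 0.531 in MOF cKO). Krt14 itself stood at 10038 and 9690 CPM in the controls and at 10437 and 12266 CPM in MOF cKO (0.20, SE 0.11, adjusted p = 0.183).

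**Figure D1:**
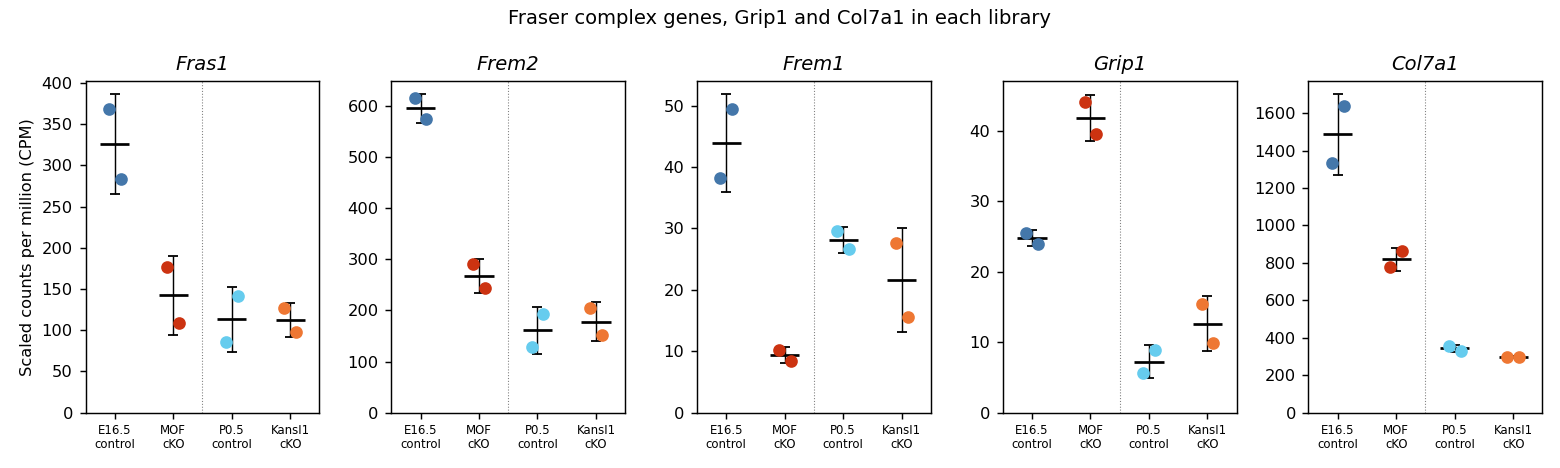
Scaled CPM of Fras1, Frem2, Frem1, Grip1 and Col7a1 (vertical axes, linear from 0) in each of the 8 libraries (points) of the 4 groups, with the mean and SD of each group as a bar and whiskers (n = 2); the E16.5 and P0.5 libraries were scaled apart. MOF cKO lies below its control for every gene but Grip1, where 44.1 and 39.5 CPM stand above 25.5 and 23.9 CPM.

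Other cell types moved in the same E16.5 libraries. The 7 suprabasal keratinocyte markers in the files (Flg was not among the names) summed to 4225 and 3415 CPM in the controls and to 9235 and 10122 CPM in MOF cKO, with 5 called higher. The 8 hair placode markers summed to 579 and 824 CPM in the controls and to 353 and 351 CPM in MOF cKO, with 4 called lower. Macrophage markers, 7 of 10 of them called higher, summed to 19.9 and 44.9 CPM in the controls and to 102 and 126 CPM in MOF cKO, although the sort was for the epithelial reporter. Most of the control sums was Cd68, which was not called, and without it the other 9 summed to 1.76 and 3.25 CPM in the controls and to 79.2 and 74.1 CPM in MOF cKO. Of the basal keratinocyte list only Krt15 was called, as lower (−1.26, SE 0.13, adjusted p = 0.000745). The part of these shifts in the members' values was not tested.

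Ratios of counts within a library do not depend on scaling. Frem2 counts per Fras1 count were 1.67 and 2.03 in the E16.5 controls, 1.65 and 2.24 in MOF cKO, 1.51 and 1.37 in the P0.5 controls and 1.62 and 1.55 in Kansl1 cKO. The ratio of the 2 membrane-bound members thus ranged from 1.37 to 2.24 over all 8 libraries. Each E16.5 library, at 1.65 or more, lay above each P0.5 library, at 1.62 or less. Frem2 per Frem1 was 16.1 and 11.6 in the E16.5 controls and 28.4 and 29.0 in MOF cKO, so the secreted member was lower by more than its partner. Grip1 per Fras1 went from 0.0692 and 0.0844 to 0.250 and 0.365, a 3.95-fold change in the geometric means, as the scaffold and its cargo went in opposite directions. These ratios are given as descriptions, with no test.

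**Figure D2:**
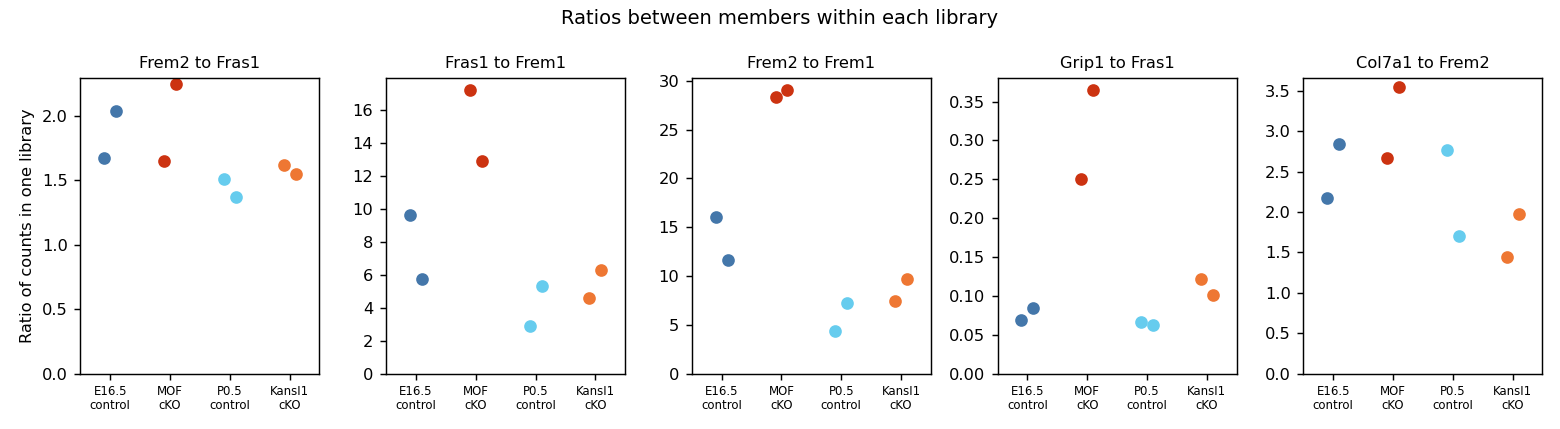
Ratios of raw counts between members (vertical axes, linear from 0) in each of the 8 libraries (points), by group. Frem2 to Fras1 runs from 1.37 to 2.24 and is higher in each E16.5 library than in each P0.5 library. Grip1 to Fras1 is highest in the MOF cKO libraries, at 0.250 and 0.365.

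At P0.5, deletion of Kansl1 gave no call among the 5 members. The test found little anywhere: 0% of the 13031 genes tested were called lower and 0% higher by edgeR, the smallest adjusted p being 0.110. DESeq2 called 0.506% of genes lower and 0.269% higher, and again none of the 5. At an unadjusted p under 0.05, 1 member, Grip1, was higher, against 7.43% of genes. The Kansl1 cKO libraries did not overlap the controls for Col7a1, as did 22.7% of genes downward, and for Grip1, as did 26.0% upward.

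Fras1 stood at 85.2 and 141 CPM in the P0.5 controls and at 127 and 98.0 CPM in Kansl1 cKO, with both Kansl1 cKO libraries inside the range of the controls (log2 fold change −0.01, SE 0.27, adjusted p = 0.989). Frem2 had 129 and 194 CPM in the controls and 205 and 152 CPM in Kansl1 cKO, and its groups overlapped too (0.15, SE 0.25, adjusted p = 0.819). Both genes were lowest in control replicate 1, the shallowest library. Frem1 had 29.6 and 26.6 CPM in the controls and 27.6 and 15.7 CPM in Kansl1 cKO, the low value being that of replicate 2 (−0.37, SE 0.28, adjusted p = 0.558). No difference was detectable in these 3 with 2 libraries a group, which does not show that they were alike.

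Grip1 had only 49 and 137 counts in the P0.5 controls and 317 and 125 in Kansl1 cKO, or 5.61 and 8.86 CPM against 15.4 and 9.88 CPM. Its log2 fold change of 0.79 (SE 0.33, adjusted p = 0.314) was close to the 0.76 of MOF cKO, with an SE more than 2-fold as large. Col7a1 stood at 357 and 330 CPM in the controls and at 296 and 300 CPM in Kansl1 cKO, both just below the lower control (−0.20, SE 0.16, adjusted p = 0.573). Markers of other cells also shifted here: the 6 melanocyte markers summed to 464 and 516 CPM in the controls and to 994 and 1121 CPM in Kansl1 cKO, and the 10 dermal fibroblast markers to 2599 and 1844 CPM against 1868 and 1580 CPM. The median log2 fold change was 1.13 over the melanocyte list and −1.33 over the fibroblast list. No gene of either list was called by edgeR, whereas DESeq2 called 4 melanocyte markers higher and 5 fibroblast markers lower. At an unadjusted p under 0.05, 6 melanocyte markers were higher (7.43% of all genes) and 7 fibroblast markers lower (8.26%). Suprabasal markers split by library and not by group, at 77717 and 43893 CPM in the controls and 44852 and 74508 CPM in Kansl1 cKO. Their part in the members' values was not tested.

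**Figure D3:**
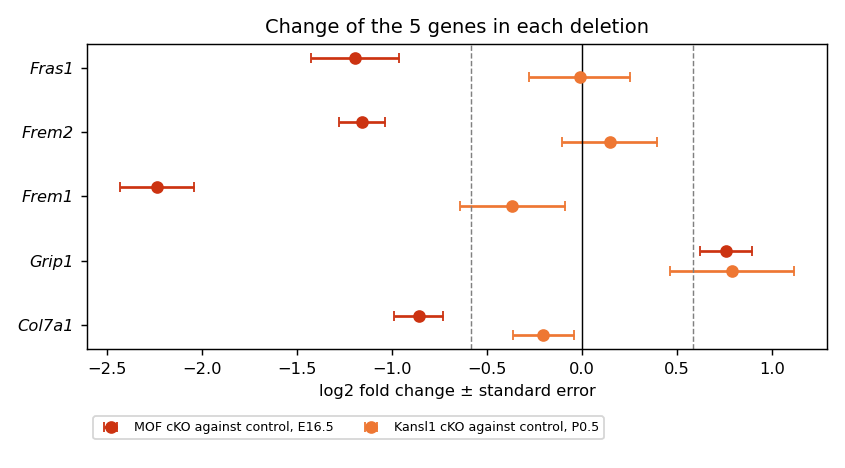
Log2 fold change of each member (horizontal axis) in MOF cKO at E16.5 and in Kansl1 cKO at P0.5, each against its own control. Whiskers are standard errors derived from the F statistic of the edgeR test (2 against 2 libraries), and dashed lines mark a fold of 1.5. Fras1, Frem2, Frem1 and Col7a1 lie left of the dashed line in MOF cKO, at −1.20, −1.16, −2.24 and −0.86, and between the lines in Kansl1 cKO.

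A call in 1 experiment and not in the other does not show that the effects differed, so the difference of the effects was tested in a fit of all 8 libraries. No member was called at an adjusted p of 0.01 (1.17% of the 14565 genes were called lower in this sense), while 4 had an unadjusted p under 0.05 (16.4% of genes lower). At an adjusted p of 0.05, 3 passed with a more negative effect in MOF cKO (6.76% of genes), namely Frem1 (difference in log2 fold change −1.90, SE 0.38, adjusted p = 0.0147), Frem2 (−1.33, SE 0.31, adjusted p = 0.0239) and Col7a1 (−0.69, SE 0.20, adjusted p = 0.0488). Fras1 did not (−1.21, SE 0.41, adjusted p = 0.0779). For Grip1 the 2 estimates were nearly equal (−0.06, SE 0.37, adjusted p = 0.935), which with this SE does not show that the effects were alike. DESeq2 called 2 members lower at 0.01, Frem1 and Frem2, among 3.57% of genes. These calls leaned on single libraries. With edgeR, Frem2 passed 0.01 without P0.5 control replicate 2 (−1.68, adjusted p = 0.00999) and Frem1 without Kansl1 cKO replicate 2 (−2.26, adjusted p = 0.00315). At 0.05, Frem1 was lost without E16.5 control replicate 2 (adjusted p = 0.0632) and without MOF cKO replicate 2 (0.0610), and Frem2 without either of these (0.0736 and 0.104), E16.5 control replicate 1 (0.0694), P0.5 control replicate 1 (0.0566) or Kansl1 cKO replicate 1 (0.0679).

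Col7a1 missed 0.05 in the difference with any library left out, with adjusted p from 0.0563 to 0.327, the latter without E16.5 control replicate 2 (−0.39), and with RLE factors (0.0861). Conversely Fras1 passed it without P0.5 control replicate 2 (−1.65, adjusted p = 0.0314). With the replicate number as a block, Frem1 alone passed 0.05 (adjusted p = 0.0427), and Frem2 (0.0705) and Col7a1 (0.0646) did not.

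Between the controls, 4 of the 5 members were lower in P0.5 epidermis than in E16.5 sorted cells, as were 20.6% of the 14565 genes. On a scale common to all 8 libraries, Col7a1 went from 1226 and 1516 CPM to 381 and 355 CPM (log2 fold change −1.90, SE 0.14, adjusted p = 1.1e-05). Frem2 went from 566 and 533 CPM to 137 and 208 CPM (−1.67, SE 0.22, adjusted p = 0.000233), and Grip1 from 23.5 and 22.1 CPM to 6.0 and 9.53 CPM (−1.53, SE 0.27, adjusted p = 0.00115). All 3 were more than 2-fold lower in each P0.5 control than in either E16.5 control.

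Fras1 went from 339 and 262 CPM to 91.0 and 152 CPM (−1.30, SE 0.29, adjusted p = 0.00434), a call lost without E16.5 control replicate 1, E16.5 control replicate 2 or P0.5 control replicate 1 (adjusted p of 0.0305, 0.0106 and 0.0326). Frem1 alone was not called, at 35.1 and 45.8 CPM against 31.6 and 28.7 CPM (−0.43, SE 0.26, adjusted p = 0.190). For all 5 the P0.5 controls lay below the E16.5 controls without overlap, as did 44.1% of genes. The median of all genes was −0.13 on this scale and −0.46 when libraries were scaled by size alone. On the same scale the suprabasal markers summed to 3882 and 3159 CPM in the E16.5 controls and to 83052 and 47259 CPM in the P0.5 controls, and the basal markers to 34591 and 33227 CPM against 19921 and 21162 CPM. The share of basal transcripts was thus lower in the P0.5 sheets, and its part in the members' values was not tested.

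Levels can be compared between genes only per length. As CPM per kilobase of exon, Col7a1 led in the E16.5 controls with 133 ± 19.9 (SD, n = 2), followed by Frem2 with 41.4 ± 1.77 and Fras1 with 17.0 ± 3.08. Frem1 (2.89 ± 0.538) and Grip1 (2.83 ± 0.118) came last and did not differ beyond their spread. In MOF cKO the upper order was kept, with 73.5 ± 5.47, 18.6 ± 2.35 and 7.41 ± 2.50, but Grip1 (4.78 ± 0.372) now stood well above Frem1 (0.615 ± 0.0870).

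In the P0.5 controls the levels per kilobase were 35.8 ± 1.76 for Col7a1, 13.0 ± 3.77 for Frem2, 6.86 ± 2.42 for Fras1, 2.15 ± 0.147 for Frem1 and 0.963 ± 0.310 for Grip1. In Kansl1 cKO they were 31.7 ± 0.0800, 14.8 ± 3.20 and 6.96 ± 1.29 for Col7a1, Frem2 and Fras1, while Grip1 (1.72 ± 0.534) and Frem1 (1.70 ± 0.671) could not be ordered. Col7a1 was the highest in every group and its lead over Frem2 was about 3-fold in the E16.5 controls. Frem1 and Grip1 were the lowest in every group, in an order that changed.

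**Figure D4:**
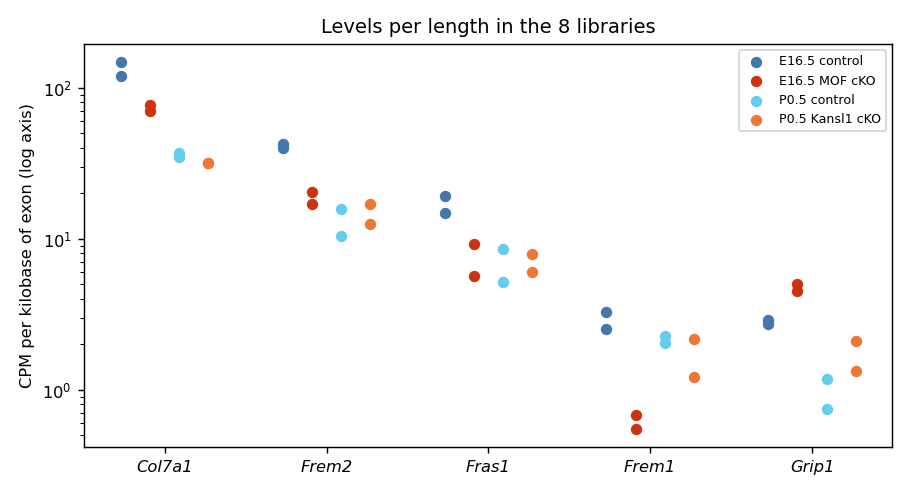
Level of each member as CPM per kilobase of exon (vertical axis, logarithmic) in each of the 8 libraries (points), coloured by group, on a scale common to all libraries. Col7a1, Frem2 and Fras1 keep their order in all 4 groups, while Frem1 drops below Grip1 in MOF cKO (0.615 against 4.78 on average).

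Among the partners of the Fraser complex, 6 of 7 could be tested in the E16.5 libraries. Of these, 0 were called lower and 1 higher by edgeR (0 and 2 by DESeq2, which added the protease gene Furin). By edgeR, 9.59% of all genes tested were called lower and 10.0% higher. At an unadjusted p under 0.05 there were 2 lower and 3 higher, where 25.1% of all genes tested were lower and 23.7% higher. The called gene was Itga8, a subunit of the integrin that binds the complex-associated ligand nephronectin, at 2.77 and 4.08 CPM in the controls and 11.0 and 14.9 CPM in MOF cKO (log2 fold change 1.92, SE 0.30, adjusted p = 0.00310). Npnt, which encodes nephronectin, had 108 and 95.9 CPM in the controls and 108 and 89.9 CPM in MOF cKO (−0.04, SE 0.13, adjusted p = 0.817). Vwa2, a basement membrane protein bound to the complex, stood at 194 and 185 CPM against 121 and 144 CPM and was not called, missing both the fold and the adjusted p (−0.52, SE 0.12, adjusted p = 0.0124). The Grip1 paralogue Grip2 had 24 and 12 counts in the controls and 74 and 28 in MOF cKO (1.99, SE 0.76, adjusted p = 0.0743). In the Kansl1 comparison 0 of the 6 partners tested were called by edgeR and 0 by DESeq2. At an unadjusted p under 0.05, 2 were higher, against 7.43% of all genes.

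Collagen VII is held at the basement membrane by ligands that include laminin and collagen IV, and Lama3 and Lamb3 encode laminin chains of the epidermis. Of the 5 ligand genes reported, 0 were called in MOF cKO and 0 in Kansl1 cKO, by edgeR and by DESeq2. At an unadjusted p under 0.05 there were 0 in either. By edgeR, 9.59% of all genes tested were called lower and 10.0% higher in MOF cKO, and 0% either way in Kansl1 cKO. At the unadjusted p the shares were 25.1% lower and 23.7% higher in MOF cKO, and 8.26% and 7.43% in Kansl1 cKO. In MOF cKO the log2 fold changes were 0.17 for Lama3 (SE 0.10, adjusted p = 0.238) and −0.11 for Lamb3 (SE 0.14, adjusted p = 0.574). Col7a1 counts per Lamb3 count went from 3.06 and 3.34 in the E16.5 controls to 2.08 and 1.78 in MOF cKO, so collagen VII transcripts were fewer relative to those of its laminin anchor.

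Of 21 genes that modify, transport or process procollagen, 18 were tested in the E16.5 libraries. By edgeR 4 were called lower, 4 higher and 10 not called (median log2 fold change 0.23), where 9.59% of all genes tested were called lower and 10.0% higher. At an unadjusted p under 0.05 there were 4 lower and 6 higher, where 25.1% of all genes tested were lower and 23.7% higher. Mia3, which loads collagen VII at the exit sites of the endoplasmic reticulum, was lower, at 83.9 and 85.2 CPM against 51.9 and 45.2 CPM (−0.80, SE 0.12, adjusted p = 0.00258). Bmp1, the protease that trims procollagen VII, was higher (0.63, SE 0.12, adjusted p = 0.00634), and its relative Tll1 was lower, from 13.3 and 16.3 CPM to 1.91 and 3.51 CPM (−2.44, SE 0.33, adjusted p = 0.00178).

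Hydroxylases moved both ways. Plod1 and Plod2, which both hydroxylate lysines of collagen, went in opposite directions (−1.02, SE 0.18, adjusted p = 0.00422, and 1.42, SE 0.14, adjusted p = 0.000639), Leprel2, a prolyl 3-hydroxylase, was lower (−1.13, SE 0.23, adjusted p = 0.00755), and P4hb, a subunit of prolyl 4-hydroxylase, was higher (0.61, SE 0.10, adjusted p = 0.00373). Tgm2, a transglutaminase that crosslinks matrix proteins, rose from 5 and 17 counts to 85 and 140 (3.72, SE 0.67, adjusted p = 0.00506). In Kansl1 cKO 0 of the 17 genes tested were called by edgeR and 0 by DESeq2. At an unadjusted p under 0.05, 4 were higher, against 7.43% of all genes.

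**Figure D5:**
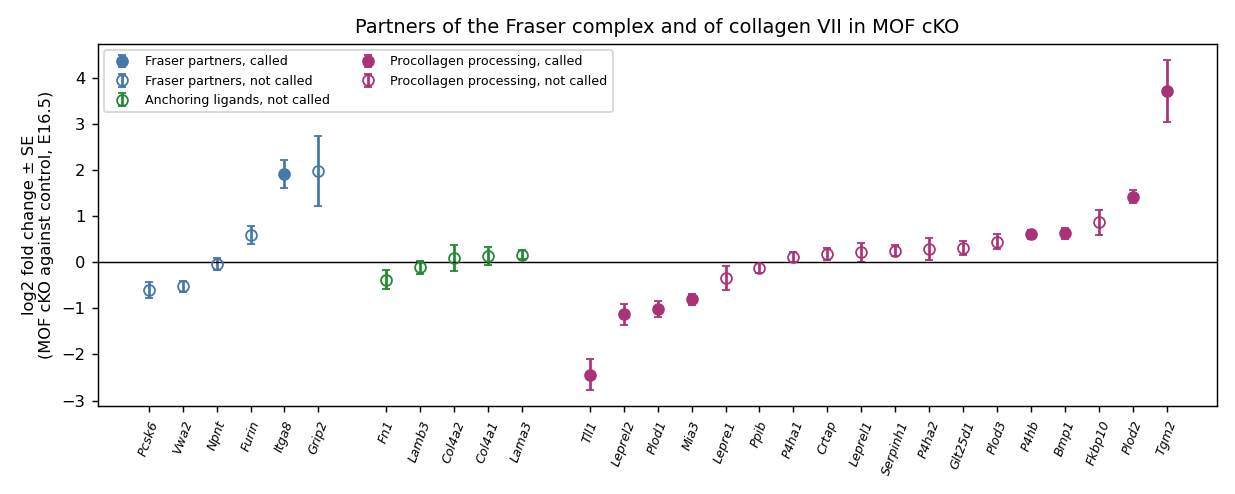
Log2 fold change in MOF cKO against control at E16.5 (vertical axis, whiskers are standard errors, 2 against 2 libraries) for the tested partners of the Fraser complex, ligands of anchoring fibrils and procollagen processing genes; filled points passed both thresholds, adjusted p and fold. The 5 ligands shown lie near 0, between −0.38 and 0.17, and procollagen genes from −2.44 (Tll1) to 3.72 (Tgm2).

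Across the 8 libraries, the Pearson r of log2 CPM was 0.95 for Fras1 and Frem2 and 0.88 for Frem2 and Col7a1. It was 0.73 for Fras1 and Col7a1. Grip1 had an r of 0.38 with Fras1, 0.57 with Frem2, 0.65 with Col7a1 and −0.53 with Frem1. Frem1 had an r of 0.49 with Fras1, 0.35 with Frem2 and 0.08 with Col7a1. These values mix stage, isolation and genotype and are descriptions over 8 libraries. By the same measure among 14564 genes, the closest to Fras1 were 1700023F06Rik, Pnpt1 and Zfp27, and the closest to Frem2 were Depdc5, Kntc1 and Elk1, with r between 0.98 and 0.99. For Frem1 they were Amt, Gpc3 and Ubr1 (0.98 to 0.99), for Grip1 Hnrpll, Afap1 and Cdk4 (above 0.99), and for Col7a1 Mroh1, Gm10100 and C330006A16Rik (0.99). An r over 0.95 was found for 31 genes with Frem1 and 366 with Grip1.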

How the data were processed

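RNA was sequenced as 150-nt read pairs from NEBNext Ultra Directional libraries and aligned to mm10. The submitters' processing notes name TopHat2 and HTSeq, whereas the study's methods name HISAT2; the annotation and strand setting of the counting are not given in the sources used here. The deposited values are raw read counts per gene as the authors counted them, 1 table per library, with nothing normalized; 21.1% to 26.0% of the tallied reads named no gene and were left out. Groups came from the sample titles. Counts were fitted in R 4.3.3 with edgeR 4.0.16 (filterByExpr, TMM factors, quasi-likelihood test), each experiment alone, and in 1 fit of all 8 libraries for the controls and the difference of effects. P-values were adjusted by Benjamini-Hochberg over all tested genes, and only listed genes are printed. The edgeR standard errors (SE) were taken as the absolute log2 fold change over the square root of the test's F statistic. DESeq2 1.42.0 was an alternative. Scripts were tested on simulated data in which only a small part of the genes changed and the others had the same mean in all groups. Of genes given a true 2-fold change there, 45.2% were called in the MOF comparison, 16.2% in the Kansl1 comparison and 1.01% for the difference. At a 4-fold change the shares were 72.7%, 76.8% and 58.2%. Far more genes were called in MOF cKO than changed in the simulation, so shares in the real data may differ. A missing call in Kansl1 cKO or in the difference thus says little about a 2-fold change. Replicates of each group differed by more than counting error.

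The members and gene lists were chosen with earlier results of these data known. Named are all members, each listed partner called in either deletion together with partners tied directly to a member, the targeted genes, and the 3 genes most like each member by Pearson r of log2 CPM (prior count of 2). CPM per kilobase used exon unions of GENCODE M21. Alternatives covered scaling factors, filters, thresholds, the likelihood ratio test, a replicate block, 1 fit over all libraries and leaving out each library; crossed pairs and DESeq2 on every gene with a count were added after seeing the data. A ligand gene of the lists is not reported here.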

Additional observations from a re-analysis of the deposited data

How the results depend on the processing

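No member changed direction under any alternative where it was called. In MOF cKO 74 of the 80 recomputed values kept their side of the threshold and 6 lost it. The settings that only loosened a threshold could not lose a call. The count of members called lower stayed between 3 and 4, while the count called higher, Grip1, went from 1 to 0 with library size alone and in a single fit over all libraries, and ranged from 0 to 1 with each library left out. In Kansl1 cKO all 85 values kept their side. Several of those settings, such as RLE factors and the replicate block, called no gene at all, so the tally is not a measure of robustness. For the controls 67 of 70 did, the 3 exceptions being Fras1 without single control libraries. For the difference of the effects 62 of 70 did and 8 passed the threshold anew. There the members called lower numbered 2 with DESeq2, 1 with library size alone, 3 with every gene with at least 1 count (Fras1, Frem1 and Frem2), and 0 to 1 with each library left out; the cause was not tested. With lengths of the longest transcript in place of exon unions, Frem1 and Grip1 both came to 4.18 and Frem2 to 44.5 CPM per kilobase in the E16.5 controls.

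Counts over all genes moved more. In MOF cKO, 1338 lower and 1395 higher became 2743 and 769 with library size alone, 2139 and 1908 with the likelihood ratio test, 2197 and 1837 with every gene with a count and 2296 and 1943 at an adjusted p of 0.05. In Kansl1 cKO, 0 and 0 became 66 and 35 with DESeq2, 114 and 71 with the likelihood ratio test, 117 and 73 with every gene with a count, and up to 197 and 76 without Kansl1 cKO replicate 2. For the controls, 2997 lower and 2854 higher became 4375 and 2144 with library size alone and 2490 and 3191 with RLE factors, and as few as 1543 lower without E16.5 control replicate 2 and 1977 higher without E16.5 control replicate 1. For the difference, 170 lower and 256 higher became 520 and 976 with DESeq2 and 539 and 1112 with every gene with a count, and ranged from 12 to 135 and from 61 to 288 with each library left out. Same-numbered libraries share only a number in the labels: their deviations correlated at 0.21 at E16.5 and −0.20 at P0.5. With the replicate block, the members called lower in MOF cKO were again 4 and higher 1, and those in Kansl1 cKO 0 and 0, while calls over all genes went to 2263 and 1903 in MOF cKO and to 0 lower and 1 higher for the difference. The block left 1 residual degree of freedom per experiment. Crossed pairs at P0.5 gave 1 gene lower and 0 higher. Libraries of a group differed by a mean chi-square per gene of 26.9 to 51.2, where counting error alone gives 1. This mean used raw library totals and is carried by genes with many counts, so it does not give the spread of a typical gene. Depth was thinnest for Grip1 in P0.5 control replicate 1, with 49 counts.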

Other observations

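Frem3, the relative of Frem1 and Frem2, had 0 counts in all 4 E16.5 libraries, which allows at most 3 counts in each, and 13 and 16 counts in the P0.5 controls and 8 and 11 in Kansl1 cKO. Grip2, the relative of Grip1, ran the other way, with 24 and 12 counts in the E16.5 controls, 74 and 28 in MOF cKO, 0 and 0 in the P0.5 controls and 2 and 1 in Kansl1 cKO. Between the controls Frem3 was called higher at P0.5 (adjusted p = 0.00244, edgeR's quasi-likelihood test with Benjamini-Hochberg adjustment), while Grip2 was not called (adjusted p = 0.0163). Stage, isolation and sequencer cannot be told apart here. Set against Krt14 in the same library, Frem1 had 0.00381 and 0.00511 counts per Krt14 count in the E16.5 controls, 0.000981 and 0.000684 in MOF cKO, 0.00561 and 0.00439 in the P0.5 controls and 0.00559 and 0.00357 in Kansl1 cKO, so MOF cKO was below all 6 other libraries, as for 7 of the 8 basal markers, Krt15 being the exception.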
